A study of Mus musculus with 6 samples.

Results

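Cultured muscle-derived stem/progenitor cells (MDSPCs) of the mouse gave a small set of cell barcodes whose RNA was rich in mitochondrial transcripts. Barcodes with 1000 or more unique molecular identifiers (UMIs, random tags by which each captured RNA molecule is counted 1 time) were selected where 8% or more of the UMIs came from the 13 genes whose symbols start with mt-. In all, 667 of 62048 barcodes met this rule, or 1.07%. The mitochondrial share chose these barcodes, so it is described below and not tested. The reference was the 51832 barcodes with a share of 1% to 4%.

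MDSPCs are slowly adhering cells enriched from dissociated skeletal muscle by moving whatever has not yet attached into new flasks several times. The study used 3 populations of young and 3 of old donor mice, grew all of them in the same proliferation medium with serum and chick embryo extract, and profiled each as 1 sample by droplet-based 3′ single-cell RNA sequencing. No allele, treatment or transgene is named for either group, and the ages, sex and strain of the mice are not given in the sources used here. The labels call the 3 samples of a group biological replicates, each under its own population name, without saying whether a population came from 1 animal or several.

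Mitochondria carry a small circular genome that encodes core subunits of the respiratory chain and of the ATP synthase, while all other mitochondrial proteins are encoded in the nucleus and imported. Muscle fibres are rich in mitochondria, and myoblasts build up their mitochondrial content when they leave the cell cycle and fuse. In droplet sequencing a high mitochondrial share is also widely used as a mark of damaged cells, since the RNA of the cytoplasm can leak through a torn membrane while mitochondria are retained.

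High-share barcodes were found in all 6 samples. They numbered 160 of 8781 in young replicate 1 (1.82%, exact 95% binomial interval 1.55% to 2.12%), 148 of 10860 in young replicate 2 (1.36%, 1.15% to 1.60%) and 41 of 10805 in young replicate 3 (0.379%, 0.272% to 0.514%). In the old samples they numbered 73 of 10181 (0.717%, 0.562% to 0.901%), 95 of 8805 (1.08%, 0.874% to 1.32%) and 150 of 12616 (1.19%, 1.01% to 1.39%) in replicates 1, 2 and 3. The young samples held both the highest and the lowest share, and the old samples lay between them. The mean was 1.19% ± 0.737 (SD, n = 3) in the young and 0.995% ± 0.247 (SD, n = 3) in the old samples. The difference of -0.193 percentage points was not larger than the spread between samples (two-sided exact permutation test, p = 0.8, where the smallest possible p is 0.1). Its sign turned without young replicate 1, at 0.124 points, and in the 4 samples counted on the longer gene list, at 0.263 points. The binomial intervals cover counting error only.

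The selected barcodes ranged from just over the limit to almost pure mitochondrial RNA. Of the 667, 118 lay between 8% and 9%, 294 between 8% and 15%, 373 at 15% or more, 259 at 30% or more and 182 at 50% or more. The median mitochondrial share of the selected barcodes was 25.6%, 10.2% and 16.4% in young samples 1 to 3, then 13.3%, 59.0% and 15.03% in old samples 1 to 3, against 2.38% to 2.94% in the reference barcodes. The lowest value inside the limit was 8.02% and the highest outside it was 7.999%. Pooled over samples, the median depth was 9235 UMIs in the 223 barcodes between 7% and 8% and 8791 UMIs in the 118 barcodes between 8% and 9%, but within samples the pair ranged from 17467 against 7166 UMIs in old replicate 2, with only 6 and 3 such barcodes, to 6626 against 8028.5 UMIs in old replicate 3. The share of barcodes under 3000 UMIs was 5.38% just outside the limit and 10.2% just inside it.

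Depth set the selected barcodes apart. Their median total was 1833.5, 5164 and 1853 UMIs in young samples 1 to 3, then 2060, 1545 and 2471 UMIs in old samples 1 to 3. The reference medians were 13514, 16659.5 and 15711 UMIs in young samples 1 to 3, and 13716, 20048 and 13126 UMIs in old samples 1 to 3. In every sample the reference median was at least 3.23 times that of the selected barcodes, and in old replicate 2 it was 13.0 times as high. Total UMIs are the denominator of the share that chose the barcodes, so this difference is a description. Of the 944 barcodes under 3000 UMIs, 42.4% were selected, against 2.21% of the 8116 barcodes with 3000 to 10000 UMIs and 0.166% of the 52988 deeper ones. Barcodes under 3000 UMIs made up 60.0% of the selected set, and 83.8% of these shallow members had a share of 15% or more. In the deepest class no member reached 15%. The mitochondrial UMI count is the numerator of the same share and is a description too. Its median in the selected barcodes was 644.5, 1010.5 and 828 in young samples 1 to 3, then 457, 885 and 656.5 in old samples 1 to 3, above the reference medians of 335, 487, 411, 325.5, 496 and 328 in the same order. The median count of other UMIs was 607 to 4676.5 in the selected barcodes against 12786 to 19565 in the reference.

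**Figure D1:**
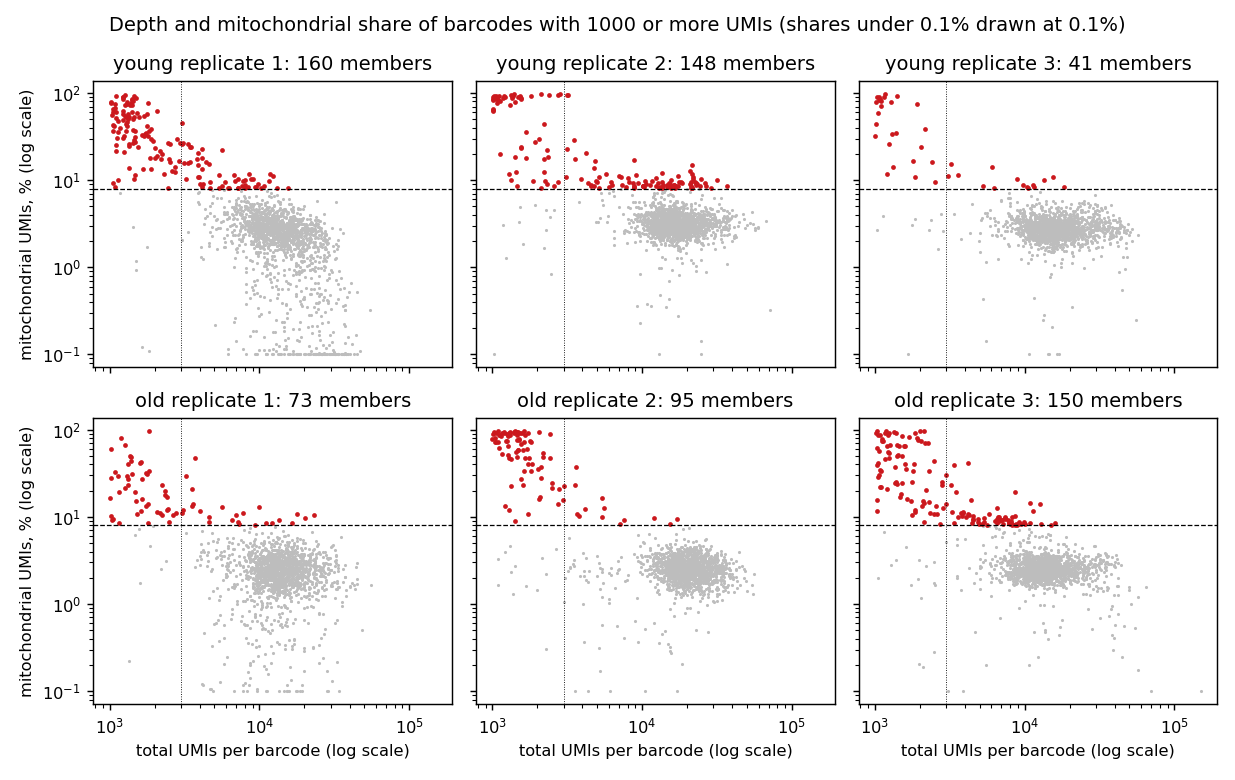
Total UMIs (x axis, log scale) against the percentage of mitochondrial UMIs (y axis, log scale) for each sample. Red points are all selected barcodes, grey points are a random sample of 1500 other barcodes per sample, the dashed line marks 8% and the dotted line 3000 UMIs; the red points form 1 band that runs from the main cloud at about 8% up and to the left, to shallow barcodes with shares near 100%.

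The deposited matrices held 62849 barcodes in all and 133974782 to 196481316 UMIs per sample. Any 2 libraries shared 24 to 41 barcode sequences over the 15 pairs, no barcode was selected in both libraries of a pair, and 9 selected barcodes also occurred in another library. Over 500 genes that vary between samples, the summed profile of the selected barcodes correlated best with the reference of its own sample in 6 of 6 samples (r of 0.658 to 0.916, against 0.0906 to 0.677 with other samples; genes are not independent, so this is a description). Young replicate 1 and old replicate 1 were counted on a shorter gene list than the other 4 samples and lack most long noncoding RNAs, including Malat1.

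For all comparisons of gene content, each selected barcode was matched to a reference barcode of the same sample within 10% of its total UMIs. Samples are numbered by replicate, and 6 values in a row stand for young samples 1 to 3 and then old samples 1 to 3. Matching was possible for 501 of the 667, namely 71, 141 and 40 in young samples 1 to 3, then 35, 71 and 143 in old samples 1 to 3. Of the 166 unmatched barcodes, 160 had under 3000 UMIs, where reference barcodes are rare. Sums over matched barcodes are weighted towards the deeper ones. No doublet caller was run, and barcodes holding more than 1 cell cannot be told apart from the others here.

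The mix of mitochondrial transcripts was examined first, since the rule used only their sum. The transcript of mt-Atp6, a subunit of the ATP synthase, made up 19.9%, 35.1% and 32.6% of mitochondrial UMIs in the selected barcodes of young samples 1 to 3, then 20.8%, 29.2% and 28.7% in old samples 1 to 3. The matched barcodes had 19.0%, 31.8%, 29.3%, 19.2%, 27.5% and 26.5% in the same order, so mt-Atp6 was higher in 6 of 6 samples while the samples themselves differed more than the classes. The transcript of mt-Cytb, the cytochrome b of complex III, went the other way, with 15.6%, 12.8%, 10.4%, 13.1%, 12.5% and 13.1% against 20.5%, 14.6%, 11.95%, 18.6%, 15.7% and 15.9%. Young replicate 1 and old replicate 1 had the lowest mt-Atp6 shares in both classes and the highest mt-Cytb shares in the matched barcodes. These samples share the shorter gene list and a version of the counting software, so differences between samples cannot be told apart from processing here. The mean difference was 2.15 points ± 0.985 (SD, n = 6) for mt-Atp6 and -3.29 points ± 1.64 for mt-Cytb. For mt-Nd4, a complex I subunit, it was 0.769 ± 0.501 points, higher in 6 of 6 samples, and for mt-Co2, a complex IV subunit, -0.678 ± 0.74 points, lower in 6 of 6. Each of these 4 genes had p = 0.031 in the two-sided exact sign-flip permutation test, the smallest that 6 samples allow, and 0.102 after adjustment over the 13 genes, so none passed 0.05. The shares of the 13 genes sum to 100% and are not independent of each other. The other 9 genes had differences of both signs among the samples. With barcodes matched on non-mitochondrial UMIs in place of all UMIs, mt-Atp6 was again higher in 6 of 6 samples, while mt-Cytb was lower in 5, mt-Nd4 higher in 4 and mt-Co2 lower in 4.

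**Figure D2:**
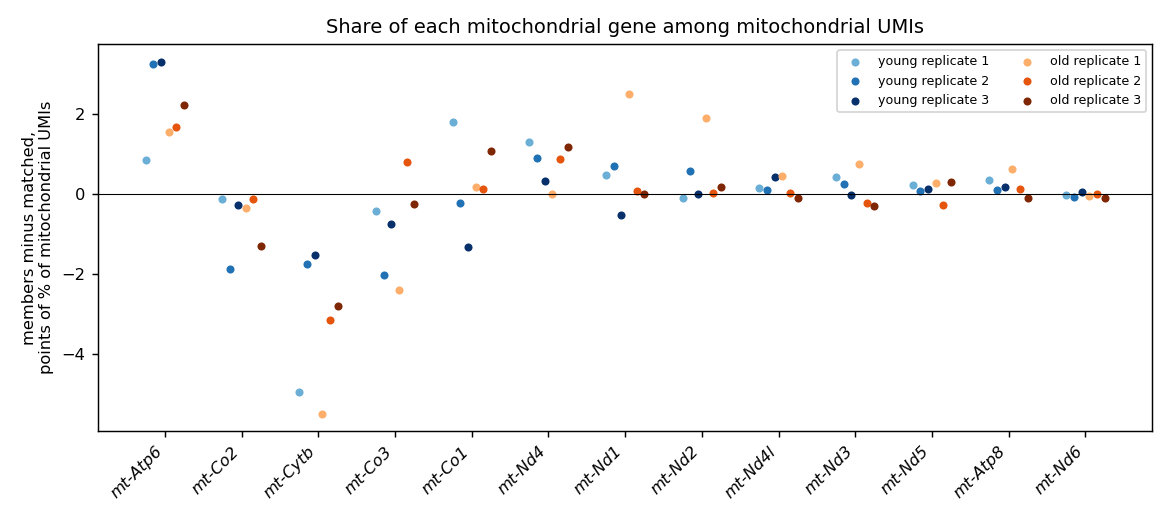
Difference between selected and matched barcodes in the share of each of the 13 mitochondrial genes (y axis, percentage points of mitochondrial UMIs; x axis, genes). Each point is 1 sample; all 6 points lie above 0 for mt-Atp6 and mt-Nd4 and below 0 for mt-Cytb and mt-Co2, and the other genes have points on both sides.

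Outside the mitochondrial genome the profile of the selected barcodes differed widely from that of their matched partners. Of 4466 genes tested in the 6 samples, 1027 rose (23.0%) and 1056 fell (23.6%) at an adjusted p under 0.05 (edgeR quasi-likelihood test on summed counts with the sample as a block, Benjamini-Hochberg adjustment). Of the called genes, 1514 had the same sign in all 6 samples. Without TMM scaling, which centres the typical gene on no change, the median log2 fold change of all genes moved from -0.00 to 0.28 and the split became 1567 higher (35.1%) and 520 lower (11.6%). Changes below are therefore relative to the typical tested gene. The filter on low counts asked for enough counts in as many sums as 1 class holds. A gene low in some matched sums could thus pass with the help of the selected ones, and the size of its rise is then uncertain. Fold changes are log2 values of selected over matched barcodes, and levels in CPM are counts of non-mitochondrial UMIs scaled to 1 common total with the TMM factors. The TMM factors were not used for levels of genes that the shorter list lacks, for summed marker lists and for levels by class of share.

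Genes of muscle differentiation led the increase. Of the 18 markers of the differentiating myocyte list, 12 were tested, 8 rose and 4 were not called, where 23.0% of all tested genes rose, with a median log2 fold change of 1.66 against -0.00 over all genes. The embryonic myosin heavy chain Myh3 (chromosome 11, 67078300 to 67102291 on mm10), a motor protein of newly formed fibres, had 437, 263 and 128 CPM in the selected barcodes of young samples 1 to 3, then 100, 98.2 and 868 CPM in old samples 1 to 3. The matched barcodes had 24.6, 19.96, 0, 10.5, 12.4 and 117 CPM in the same order. Every sample was higher in the selected barcodes, while old replicate 3 had the highest level in both classes. The log2 fold change of Myh3 was 3.47 (SE 0.26, edgeR adjusted p = 3.01e-18). Myh3 was low in most matched sums and passed the filter on low counts through the selected barcodes, so the size of its rise is uncertain.

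The giant sarcomere protein titin, encoded by Ttn (chromosome 2, 76703980 to 76982547), had 1431, 3106, 504, 852, 2824 and 3815 CPM in the selected barcodes, in the order of young then old replicates 1, 2 and 3, against 253, 917, 7.14, 99.5, 641 and 609 CPM. The 2 ranges overlap across samples but not within any one sample (log2 fold change 2.55, SE 0.23, edgeR adjusted p = 1.45e-09). The essential myosin light chain Myl1 had 1921, 2535, 170, 40.1, 98.2 and 2589 CPM against 28.1, 277, 28.6, 15.7, 62.2 and 641 CPM, and its rise ranged from slight in old replicate 2 to very large in young replicate 1 (log2 fold change 2.94, SE 0.71, edgeR adjusted p = 0.0193). Tnni1, the slow troponin I, rose by 1.88 (SE 0.27) and Actc1, the cardiac actin that developing skeletal muscle also uses, by 1.33 (SE 0.24). The 12 genes with the largest rise also included Ryr1, the calcium release channel of the sarcoplasmic reticulum (2.37), Srl, a calcium-binding protein of the same compartment (2.31), Rbm20, a splicing factor of titin (2.16), and Mef2c, a transcription factor of muscle differentiation (2.76). Of the 10 myogenic progenitor markers 8 were tested and 2 rose, a share near the 23.0% of all tested genes. These were the laminin receptor subunit Itga7 (1.68, SE 0.26, higher in 6 of 6 samples) and the M-cadherin gene Cdh15 (0.92, SE 0.28).

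Summed over the 18 markers, the myocyte list held 1.88%, 1.64% and 0.608% of non-mitochondrial UMIs in the selected barcodes of young samples 1 to 3, then 0.127%, 0.430% and 2.41% in old samples 1 to 3. The matched barcodes held 0.201%, 0.300%, 0.0863%, 0.0892%, 0.151% and 1.01%. The value was higher in 6 of 6 samples, by as little as 0.0377 points in old replicate 1 and as much as 1.68 points in young replicate 1. The mean difference was 0.875 points ± 0.680 (SD, n = 6; two-sided exact sign-flip permutation test, p = 0.031, adjusted 0.05625 over 9 measures), which does not pass 0.05 after adjustment. Matched on non-mitochondrial UMIs, it was higher in 5 of 6 samples and turned to -0.0206 points in old replicate 1 (mean 0.885 points, exact sign-flip permutation p = 0.0625). With 6 samples no single measure can fall below 0.031 before adjustment. Over all selected barcodes of old replicate 1, Ttn had 193 UMIs and every other marker of the list at most 24. The gap in Ttn there, given above, was larger than that of the whole list, 1269 against 892 CPM without scaling. The higher sum in old replicate 1 thus rests on Ttn. In old replicate 2, Ttn had 406 UMIs and every other marker at most 32. Ttn covers over 200 kb of the genome, a class of genes of which most rose, as given below. The part of gene span in the rise of the list in old replicates 1 and 2 was not tested.

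**Figure D3:**
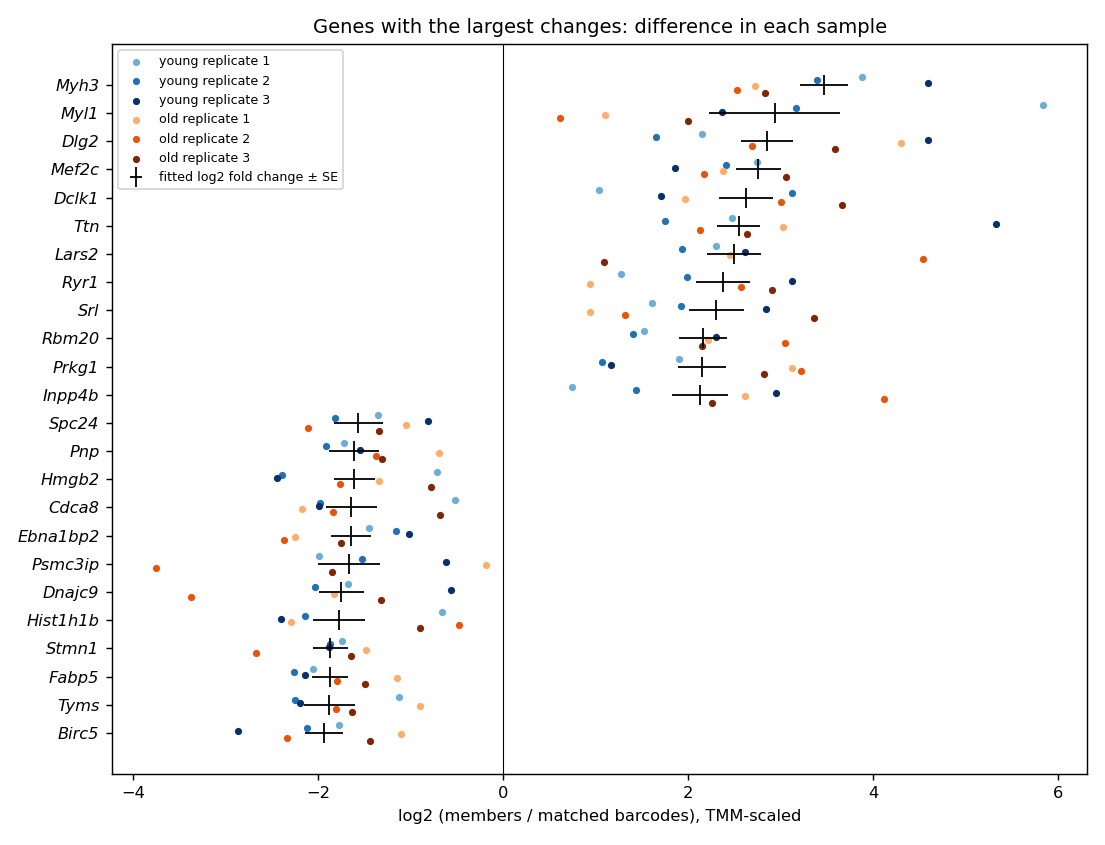
Log2 difference between selected and matched barcodes (x axis) for the 12 genes with the largest rise and the 12 with the largest fall (y axis), 1 coloured point per sample; black bars give the fitted value and its SE. All 6 points of each gene lie on 1 side of 0, and those of Myl1 spread the most.

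In the selected barcodes, lists of nuclear genes whose products work in mitochondria did not rise along with the mitochondrial transcripts. Of the 78 genes of oxidative phosphorylation encoded in the nucleus, 77 were tested, 30 fell and 47 were not called (median log2 fold change -0.35), where 23.6% of all tested genes fell. The share of all genes that fell was higher among genes of short span, as given below. Neither this list nor the others were compared with genes of like span. Sdhb, a complex II subunit, fell by 0.93 (SE 0.20), Ndufa12 of complex I by 0.89 (SE 0.19) and Atp5f1 of the ATP synthase by 0.79 (SE 0.18). This direction is weak on another scale: without TMM scaling the median was -0.06, with 8 genes lower and 1 higher. The list held 4.82%, 4.41%, 3.09%, 3.29%, 3.35% and 3.79% of non-mitochondrial UMIs in the selected barcodes against 5.00%, 3.83%, 3.33%, 3.67%, 4.74% and 4.86%, lower in 5 samples and higher in young replicate 2 (exact sign-flip permutation p = 0.219).

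The genes for proteins of the mitochondrial ribosome, which translates the mt- transcripts, also fell. Of 69 tested, 43 fell and 26 were not called, where 23.6% of all tested genes fell, with a median of -0.60. Without TMM scaling 16 fell, where 11.6% of all tested genes fell, with a median of -0.33. Mrpl11 had 71.7, 167, 121, 55.2, 57.3 and 129 CPM in the selected barcodes and 158, 244, 264, 141, 193 and 309 CPM in the matched ones, so every sample was lower (log2 fold change -1.10, SE 0.21, edgeR adjusted p = 1.92e-05). Of 21 import and chaperone genes 12 fell and 1 rose, where 23.6% of all tested genes fell, and without TMM scaling 4 fell and 1 rose against 11.6% and 35.1% of all genes. They include the matrix chaperonin pair Hspd1 (-0.89, SE 0.18) and Hspe1 (-0.93, SE 0.17), which both fell. Of 7 tested genes for upkeep of mitochondrial DNA and RNA, 4 fell and 1 rose, and without TMM scaling 1 fell and 2 rose, a list too short to set against the shares of 23.6% and 23.0% over all genes. Those that fell were Ssbp1, which binds single-stranded mitochondrial DNA (-0.71), the RNase P subunit Hsd17b10 (-0.84), the oligoribonuclease Rexo2 (-0.64) and Slirp (-0.63), an RNA-binding partner of Lrpprc. Among 11 genes of mitochondrial dynamics, 2 fell, the prohibitins Phb (-0.82) and Phb2 (-0.72), and 1 rose, below the 23.6% and 23.0% of all tested genes. The one that rose was Ppargc1a, a coactivator that drives mitochondrial biogenesis, with 19.6, 97.2, 49.6, 40.1, 115 and 34.4 CPM against 28.1, 39.9, 49.997, 15.7, 68.4 and 11.5 CPM. It was higher in 4 of 6 samples (log2 fold change 0.87, SE 0.29, edgeR adjusted p = 0.0116). The median of this list changed sign without TMM scaling, from -0.20 to 0.09.

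Nearly all protein genes of the cytoplasmic ribosome fell. Of 82 ribosomal protein genes tested, 80 fell and 2 were not called (median -0.73), where 23.6% of all tested genes fell. Without TMM scaling 61 fell (median -0.43), where 11.6% of all tested genes fell. Together they held 16.5%, 19.3% and 15.03% of non-mitochondrial UMIs in the selected barcodes of young samples 1 to 3, then 16.5%, 8.41% and 14.5% in old samples 1 to 3. The matched barcodes held 24.4%, 20.7%, 20.7%, 22.3%, 16.8% and 19.2%. All 6 samples were lower, least in young replicate 2 and most in old replicate 2 (mean difference -5.64 points ± 2.52, SD, n = 6; exact sign-flip permutation test p = 0.031, adjusted 0.05625). Rps26, a protein of the small subunit, fell by 1.15 (SE 0.18, edgeR adjusted p = 6.58e-07).

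Many cell cycle genes fell and none rose. Of 16 tested S phase genes 10 fell and 6 were not called (median -0.82), and of 30 tested genes of G2 and mitosis 16 fell and 14 were not called (median -0.67), where 23.6% of all tested genes fell. Birc5, a chromosomal passenger protein needed for cell division, had 58.7, 137, 92.2, 135, 57.3 and 158 CPM in the selected barcodes against 215, 618, 707, 299, 311 and 438 CPM in the matched ones. The highest selected sample lay below the lowest matched one (log2 fold change -1.94, SE 0.21, edgeR adjusted p = 1.75e-11). Tyms, the thymidylate synthase of DNA precursor supply, fell by 1.88 (SE 0.28), and its 6 selected values of 18.0 to 45.1 CPM were also all below the 75.6 to 150 CPM of the matched barcodes. Stmn1, a regulator of microtubules in dividing cells, fell by 1.87 (SE 0.19), Hmgb2, a chromatin protein of cycling cells, by 1.61 (SE 0.22), and Pcna, the replication clamp, by 1.45 (SE 0.24). Fabp5, a fatty acid binding protein, fell as much with 117, 74.0, 227, 241, 115 and 84.9 CPM against 506, 376, 1021, 539, 411 and 250 CPM (log2 fold change -1.87, SE 0.20). As a share of UMIs, the G2 and mitosis list was lower in 6 of 6 samples, with a mean of 0.352% against 0.537% (exact sign-flip permutation p = 0.031, adjusted 0.05625), but in old replicate 1 the classes were nearly equal at 0.565% and 0.569%. Among members with a share of 10% or more it was lower in 4 of 6 samples (p = 0.125 by the same exact test), and at 15% or more in 3 of 5 (p = 0.25). The S phase list was lower in 4 of 6 samples, with 0.138% against 0.189% (p = 0.125, adjusted 0.141, by the same exact test), and higher by 0.0095 points in young replicate 1 and 0.0068 points in old replicate 3. Matched on non-mitochondrial UMIs, the S phase list was lower in 6 of 6 samples (exact sign-flip permutation p = 0.031, adjusted 0.05625) and the G2 and mitosis list in 5 of 6, with 0.598% against 0.508% in old replicate 1 (p = 0.0938 by the same exact test).

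In the lists of p53 targets, the integrated stress response, heat shock, antioxidants and endoplasmic reticulum chaperones, the share of tested members that rose was not above the 23.0% of all tested genes. Of 14 tested p53 targets and apoptosis genes 3 rose and 2 fell, less than 1 gene from the share of all genes that rose. Without TMM scaling, where 35.1% of all tested genes rose, the p53 and apoptosis list gave 7 higher and 1 lower, so its place relative to all genes turned. The chaperones then gave 4 and 1 of 14, still below the share of all genes, with a median that went from -0.05 to 0.24. The matrix genes described last gave 7 and 0. Bcl2l1, whose long form protects from apoptosis, rose by 0.93 (SE 0.25), while Bax, its pro-apoptotic counterpart, fell by 0.97 (SE 0.18) and Cycs, the cytochrome c of the respiratory chain, by 0.55 (SE 0.17). Cdkn1a, a p53 target that stops the cell cycle, rose by 0.51 (SE 0.20) in all matched barcodes, but had -0.50 in those with a share of 15% or more. Of 11 tested genes of the integrated stress response 3 fell, near the 23.6% of all tested genes, with the lowest p for the serine synthesis enzyme Phgdh (-1.36, SE 0.20). The share that fell was above 23.6% in the next 5 lists. Of 12 heat shock genes 6 fell, with Hsp90aa1 at -0.91 (SE 0.17), and of 24 antioxidant and iron genes 9 fell, with Txn1 at -1.18 (SE 0.18). Of 12 glycolysis and hypoxia genes 8 fell, Eno1 by 1.15 (SE 0.18) and Ldha by 0.99 (SE 0.18). Of 26 cytoskeleton genes 14 fell and of 12 histone genes 9 fell. The endoplasmic reticulum chaperones gave 2 higher and 3 lower of 14, and Pdia6, a disulfide isomerase, changed direction with the share: -0.51 in all matched barcodes and 1.13 at 15% or more (edgeR adjusted p = 0.00518 there). Extracellular matrix genes gave 4 higher and 1 lower of 14, where 23.0% of all tested genes rose and 23.6% fell. Among those called were the adhesion protein Thbs1 at 0.97 (SE 0.26), the laminin chain Lamc1 at 0.77 (SE 0.26) and the collagen Col5a2 at 0.56 (SE 0.20), and the protease inhibitor Timp1 at -0.71 (SE 0.20). As a share of UMIs the matrix list was higher in 6 of 6 samples, with a mean of 0.398% against 0.291% (exact sign-flip permutation p = 0.031, adjusted 0.05625), by as little as 0.0098 points in old replicate 3. It was higher in 5 of 6 samples at a share of 10% or more and in 4 of 5 at 15% or more.

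The selected set joined barcodes that differed in these measures by how high the mitochondrial share was. Ribosomal protein genes held 17.5% to 25.01% of non-mitochondrial UMIs at a share of 1% to 4% over the 6 samples, 9.89% to 19.5% at 8% to 15%, and 3.24% to 12.05% at 15% or more. In young replicate 2 the 3 values were 21.02%, 19.5% and 12.05%, and in old replicate 3 they were 19.1%, 15.9% and 5.25%. The 12.05% joined 17.3% in 8 barcodes with 3000 or more UMIs and 6.26% in the 46 shallower ones. Among reference barcodes under 3000 UMIs ribosomal protein genes held 8.06% in young replicate 1 and 13.5% to 18.2% in the other 5 samples, against 2.84% to 6.43% in barcodes under 3000 UMIs with a share of 15% or more. The nuclear oxidative phosphorylation list held 3.39% to 4.90% at 1% to 4%, 3.21% to 5.32% at 8% to 15% and 0.818% to 2.75% at 15% or more. At 4% to 8%, outside the selected set, it was above the reference in all 6 samples. The values there were 5.64%, 4.34%, 3.55%, 4.09%, 5.69% and 5.15%, against 4.90%, 3.89%, 3.39%, 3.66%, 4.77% and 4.79%. At 8% to 15% it was above the reference in young replicates 1 and 2 and below it in the other 4 samples, by most in old replicates 2 and 3 with 4.04% against 4.77% and 4.12% against 4.79%. The reference barcodes of young replicate 1 were also low where shallow, with 1.59% in the 20 under 3000 UMIs. Among matched barcodes under 3000 UMIs the list held 1.56% against 1.71% in young replicate 1, and 1.13% to 2.02% against 2.95% to 4.63% in the 4 other samples with enough of them. The myocyte list was highest at 8% to 15% in the 3 young samples, with 2.04%, 1.68% and 0.654% against 0.0745%, 0.280% and 0.0224% at 1% to 4% and 0.612%, 0.644% and 0.207% at 15% or more. With depth matched, young replicate 3 was lower than its partners at 15% or more, with 0.174% against 0.411%, and under 3000 UMIs, with 0.176% against 0.365%, while the other 4 samples with enough such barcodes were higher in both. In old replicates 2 and 3 it was highest at 4% to 8%, outside the selected set. From the lowest of the 4 classes to the highest, it was 0.194%, 0.831%, 0.321% and 0.655% in old replicate 2 and 1.29%, 4.17%, 2.32% and 2.91% in old replicate 3. In old replicate 1 it was highest at 15% or more, with 0.331%. Of those 34 barcodes, the 31 under 3000 UMIs held 0.103%, so the few deeper ones carried the value. The 12 reference barcodes of this sample under 3000 UMIs held 0.634%. The values by class of share are without matching on depth, and the median depth was 6980.5 UMIs at 8% to 15% and 1446 UMIs at 15% or more.

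**Figure D4:**
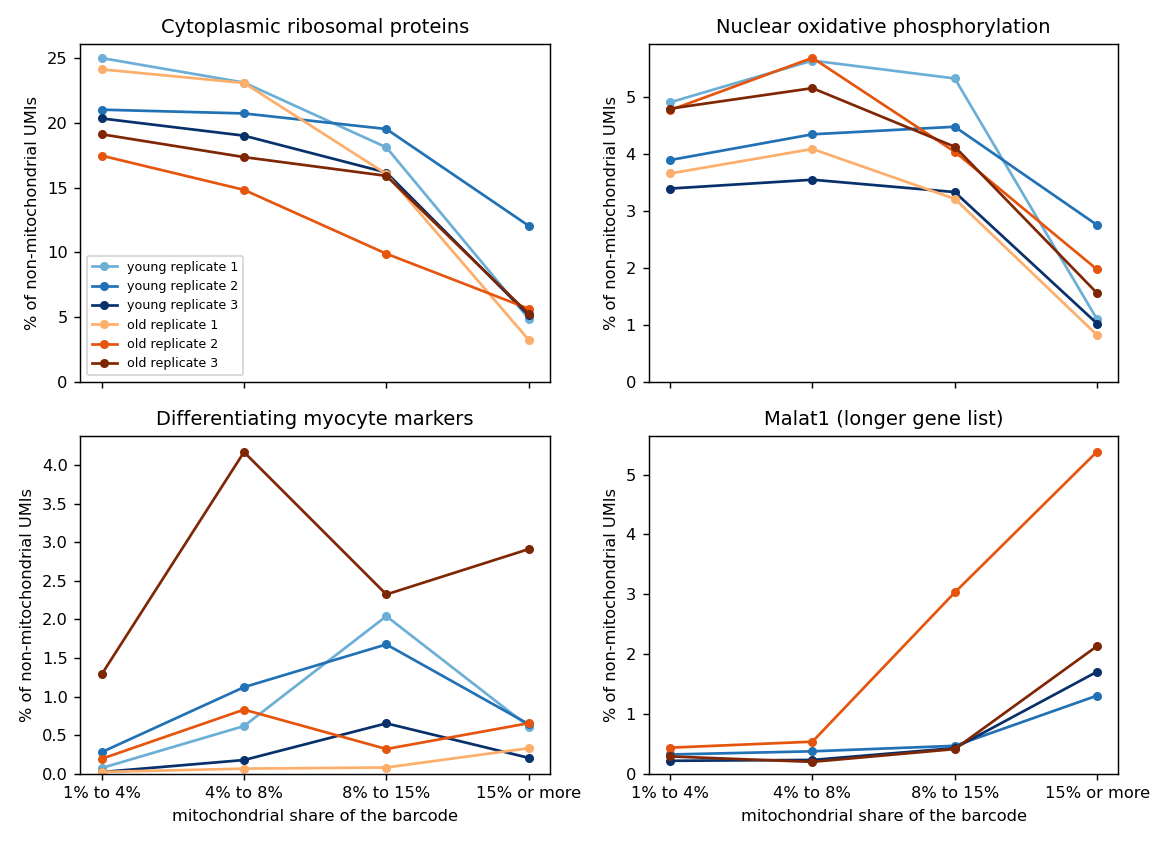
Percentage of non-mitochondrial UMIs (y axis) held by 3 gene lists and by Malat1 in 4 classes of mitochondrial share (x axis), 1 line per sample. Ribosomal protein lines drop towards 15% or more, Malat1 lines (4 samples) climb there, and the myocyte lines of the 3 young samples peak at 8% to 15%.

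The fits by class of share used barcodes matched on total UMIs, mitochondrial ones included, so the selected barcodes held fewer other UMIs in all 6 samples, for example 329722 against 369313 in young replicate 1 and 117856 against 184630 in old replicate 2. Matching on non-mitochondrial UMIs instead, with 24 to 111 pairs per sample, called 951 genes higher and 807 lower of 4220. The fit of members at 8% to 15% called 623 genes higher and 542 lower of 5322 tested in the 4 samples with enough barcodes, and the fit at 15% or more called 431 and 399 of 1114 tested in 5 samples. Of the 1114 genes tested in both, 357 were called in both with the same sign and 2 with opposite signs, which is 86.4% of the 413 called at 8% to 15% and 43.0% of the 830 called at 15% or more. Ribosomal protein genes had a median of -1.24 at 15% or more and the nuclear oxidative phosphorylation list of -1.03. Myocyte markers had a median of 2.58 among members with 3000 or more UMIs, where 10 of 14 tested rose against 9.57% of all genes, and of 0.97 at 15% or more, where 4 of 8 tested rose against 38.7% of all genes. The 2 fits test different genes, so these counts are not compared with each other. Barcodes with 1000 or more non-mitochondrial UMIs were thinned to 1000. These were 60, 110, 23, 32, 29 and 94 of the matched members, only 29 of 71 in old replicate 2, and 71, 140, 37, 35, 69 and 140 of their partners. They showed a median of 692, 662.5, 740, 758, 795 and 695 genes in the selected set against 599, 664, 685, 667, 677 and 647 in the matched set, higher in 5 of 6 samples, and the members with the fewest other UMIs are not in these medians. The 50 most abundant genes held 18.2% of UMIs against 23.5% on average, lower in 6 of 6.

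The genes that rose had a longer median span than the genes that fell. Here the span of a gene is its length on the mm10 genome from first to last annotated base, introns included, and whether reads in introns were counted is not given in the sources used here. The median span was 107 kb for the 1027 genes that rose, 9.56 kb for the 1056 that fell and 28.2 kb for all genes tested. Of 316 genes with a span over 200 kb, 256 rose, or 81.0%, with a median log2 fold change of 0.97. Of 512 genes with a span up to 5 kb, 298 fell and 8 rose, and the median was -0.59. The order of the span classes was the same in the fit of members with 3000 or more UMIs and in the fit of members under 3000 UMIs, where the longest class had a median of 0.86 and 2.34, and without TMM scaling, where it was 1.26. Span was not tested, since neighbouring and co-expressed genes are not independent. Of the named genes that rose, Dlg2, a synaptic scaffold gene that spans 1972576 bases of chromosome 7, rose by 2.85 (SE 0.28), the cGMP-dependent kinase gene Prkg1 with 1200545 bases by 2.15 (SE 0.26) and the phosphatase gene Inpp4b with 785359 bases by 2.13 (SE 0.30). Dlg2 had 300, 160, 128, 206, 671 and 1244 CPM against 63.3, 46.9, 0, 5.24, 99.6 and 98.5 CPM, and each sample was higher. Dlg2 was low in the matched barcodes of young replicate 3 and old replicate 1. It passed the filter on low counts with the help of the selected barcodes, so the size of its rise is uncertain. Its unscaled level climbed with the mitochondrial share in all 6 samples, for example from 2.70 CPM at 1% to 4% to 71.5 CPM at 8% to 15% and 815 CPM at 15% or more in old replicate 1. Ttn, which gave most of the myocyte marker UMIs in the selected barcodes of old replicates 1 and 2, is also in the class over 200 kb. Of the named genes that fell, Fabp5 spans 4060 bases, Stmn1 5524 and Birc5 6493. Not every named gene followed this order: Myh3 with 23992 bases and Myl1 with 21110 rose and are below the median span of all genes tested, and Pnp, a purine nucleoside phosphorylase, fell by 1.61 and is above it with 34156 bases.

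**Figure D5:**
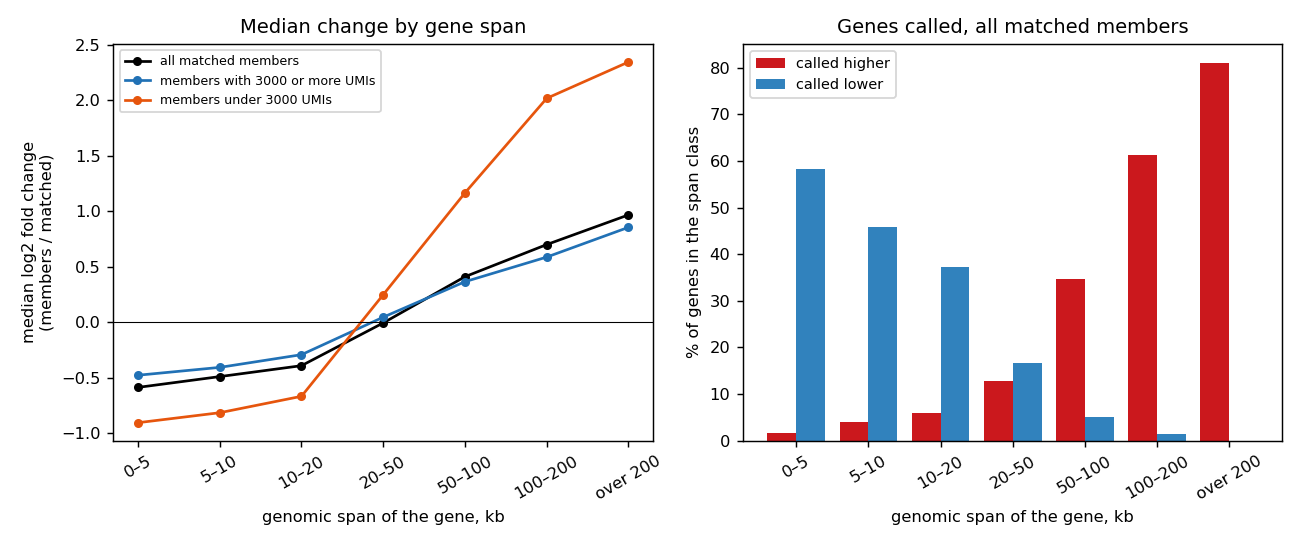
Left, the median log2 fold change of selected over matched barcodes (y axis) by genomic span of the gene in kb (x axis) in 3 fits. Right, the percentage of genes in each span class called higher or lower in the fit of all matched barcodes; the share called higher goes from 1.56% in the shortest class to 81.0% in the longest, and the share called lower is 58.2% in the shortest class.

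Lars2, the mitochondrial leucyl-tRNA synthetase, had its highest levels in the barcodes with the highest mitochondrial share. It had 264, 118, 291, 396, 1138 and 138 CPM in the selected barcodes against 49.2, 26.9, 42.9, 68.1, 43.6 and 61.9 CPM in the matched ones, higher in each sample (log2 fold change 2.499, SE 0.29, edgeR adjusted p = 7.44e-07). The fold change was 1.21 among members with 3000 or more UMIs and 4.91 at a share of 15% or more. Without matching or scaling, its level was 15.3 to 38.1 CPM at a share of 1% to 4%, 20.1 to 44.9 CPM at 4% to 8%, 33.7 to 353 CPM at 8% to 15% and 633 to 3656 CPM at 15% or more over the 6 samples. The list that holds Lars2 is of transcripts that can copy or overlap ribosomal or mitochondrial RNA, and whether its reads came from such RNA was not tested.

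Noncoding RNAs could be followed only in the 4 samples counted on the longer list. Their levels in CPM are without the TMM factors, while their fold changes are from the scaled fit. A fit of all genes of that list called 833 of 5186 genes higher (16.1%) and 613 lower. Of the 63 tested genes that the shorter list lacks, 24 were higher and 39 were not called. All 5 tested members of a list of RNAs known to stay in the nucleus rose (median 1.28), namely Malat1 and Neat1, which sit in or beside nuclear speckles and paraspeckles, Xist, which coats the inactive X chromosome, and the antisense RNAs Kcnq1ot1 and Airn of imprinted gene clusters. Xist had 940, 939, 2273 and 1209 CPM in the selected barcodes of young replicates 2 and 3 and old replicates 2 and 3, against 613, 244, 357 and 558 CPM in the matched ones, and rose by 1.37 (SE 0.29, edgeR adjusted p = 6.82e-05). Neat1 rose by 1.39 (SE 0.28), Airn by 1.76 (SE 0.30) and Kcnq1ot1, higher in 3 of 4 samples, by 1.28 (SE 0.33). Malat1 held 0.4997%, 0.565%, 3.98% and 0.632% of non-mitochondrial UMIs against 0.340%, 0.288%, 0.590% and 0.384%. It was higher in 4 of 4 samples, most in old replicate 2, whose selected barcodes also had the highest median mitochondrial share, and it rose by 1.06 in the fit (SE 0.33, edgeR adjusted p = 0.0105). Among members with 3000 or more UMIs, which 2 of these samples had in sufficient number, the difference was 0.136 points in young replicate 2 and 0.0098 points in old replicate 3, with 0.310% against 0.300%. The measure over 4 samples gave p = 0.125 in the exact sign-flip permutation test, the smallest possible.

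The largest rise among those 63 genes, chosen after the values were seen, was that of the long noncoding gene Gm28653 (chromosome 1, 20669882 to 20684298). It had 351, 441, 1458 and 904 CPM in the selected barcodes of young replicates 2 and 3 and old replicates 2 and 3, against 144, 0, 202 and 141 CPM in the matched ones, so each selected value was above its partner (log2 fold change 2.46, SE 0.30, edgeR adjusted p = 2.21e-13). With 0 CPM in the matched barcodes of young replicate 3, it passed the filter on low counts with the help of the selected barcodes, so the size of its rise is uncertain. The gene encloses the hairpins of 2 muscle microRNAs on the same strand, whose 3p mature forms are shown because their host was the gene with the largest rise. The sequences are from RefSeq on GRCm38.p6, 5′ to 3′, with the seed (bases 2 to 8) in capitals.
mmu-miR-206-3p, chr1:20679055-20679076: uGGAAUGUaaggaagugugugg
mmu-miR-133b-3p, chr1:20682834-20682855: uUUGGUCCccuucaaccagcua
The 2 seeds differ. Neither mature microRNA was measured, since 3′ libraries of this kind capture polyadenylated RNA. H19, another noncoding RNA abundant in developing muscle, had 690, 189, 847 and 1914 CPM against 125, 17.9, 335 and 722 CPM and rose by 1.76 (SE 0.30, edgeR adjusted p = 5.85e-07).

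Whether the contrast between selected and matched barcodes depends on the age group was tested by the interaction term of the same model. Of 4466 genes 9 passed (0.202%), each with a smaller or opposite difference in the old samples. The small heat shock protein Hspb1, abundant in muscle, had log2 differences of 1.03, 0.64 and 2.30 in young samples 1 to 3, then of -1.58, -0.95 and -1.68 in old samples 1 to 3 (interaction -2.38, SE 0.39, edgeR adjusted p = 0.000121). The troponin C gene Tnnc1 had 2.82, 3.07 and 3.33 against -0.06, 1.49 and 0.72 (interaction -2.35, SE 0.42, edgeR adjusted p = 0.0004). The fast troponin I gene Tnni2 had 5.44, 2.25 and 3.23 against -0.97, -0.28 and -0.22 (edgeR adjusted p = 0.000979). DESeq2 did not call Tnni2 (DESeq2 adjusted p = 0.403), and the gene was not among those tested without young replicate 2 or without old replicate 3. In all 3 genes the young and old samples did not overlap. The other 6 were the smooth muscle actin Acta2 (-1.96), the slow troponin T Tnnt1 (-2.58), the embryonic light chain Myl4 (-2.19), the tropomyosin Tpm2 (-1.64), the calcium channel subunit Cacng1 (-1.92) and desmin, Des (-2.27). DESeq2 called 4 genes for the same term, of which Hspb1, Tnnc1, Acta2 and Tnnt1 are all among the 9. Leaving out 1 sample at a time gave 8 to 21 genes, with 15 without young replicate 2 or young replicate 3 and 21 without old replicate 1. The old samples also held less myocyte RNA in their selected barcodes in replicates 1 and 2, as given above, and the part of that content in the interaction was not tested.

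Markers of other cell types were checked in the same sums, with levels in CPM that are without the TMM factors. The 5 erythroid markers had 0 UMIs in the selected barcodes of each sample, which allows up to 3 per sample, and the 9 macrophage markers summed to 1 to 7 UMIs per sample against 0 to 8 in the matched ones, with 6 to 8 of the 9 at 0. The 5 Schwann cell markers summed to 0 to 4 UMIs, with 3 to 5 of them at 0. The 6 endothelial markers summed to 1 to 3 UMIs except in young replicate 2, which had 167 against 75 in its matched barcodes, with 5 of the 6 markers at 0 in both and all 167 UMIs from Tek, a receptor kinase gene. The 10 fibro-adipogenic markers summed to 177 to 573 CPM in the selected and 249 to 515 CPM in the matched barcodes, with 4 or 5 at 0, and the 2 tested were not called. The 7 smooth muscle and pericyte markers summed to 892, 2116 and 820 CPM in the selected barcodes of the young samples against 246, 872 and 217 CPM in the matched ones, higher in 3 of 3. In the old samples they summed to 78.7, 331 and 1573 CPM against 164, 444 and 1606 CPM, lower in 3 of 3. Of these 7 markers, 1 to 4 were at 0 in the selected barcodes. Most of their UMIs came from Acta2 and Des in every sample, for example 1341 and 985 over all selected barcodes of young replicate 2. Myh11 had 0 UMIs in every sample, and Cnn1, Rgs5 and Pdgfrb had 0 to 2. Acta2 and Des are among the 9 genes of the interaction, and Des is also on the myogenic progenitor list. The difference between the age groups was not tested for the smooth muscle and pericyte list. The myogenic progenitor markers summed to 507 to 2076 CPM in the selected and 279 to 1518 CPM in the matched barcodes, higher in 6 of 6 samples, with 2 or 3 of 10 at 0. The share of barcodes with any UMI of this list was higher in the selected set of young replicate 1 and old replicate 1, with 74.3% against 57.1% in the latter. In the other samples it was lower, for example 46.5% against 77.5% in old replicate 2. The part of any of these in the results above was not tested.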

How the data were processed

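The authors deposited raw UMI counts per gene and barcode for each sample, made with Cell Ranger 7.0.0 (young replicate 1 and old replicate 1, 21849 features) or 7.2.0 (the other 4, 32285 features), per the file headers. The submitters' processing notes name mm10, Cell Ranger 7.2.0 and Seurat. The treatment of intronic reads, the annotation and the rule for calling cells are not given in the sources used here. No deposited barcode had under 500 UMIs.

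The selected barcodes and the gene lists were chosen with earlier results of these data known. Each selected barcode was matched 1 to 1, without replacement, to a barcode of the same sample with a share of 1% to 4% within 10% of its total UMIs. Counts were summed per sample and class over the genes without mitochondrial ones among the 21485 identifiers of both lists, which makes each sample 1 replicate. The model had terms for sample and class, plus class by age for the interaction, and was fitted by edgeR 4.0.16 (R 4.3.3) after TMM scaling and filterByExpr. Its robust quasi-likelihood test was two-sided, with Benjamini-Hochberg adjustment at 0.05. The SE is the absolute fold change over the square root of F. The test was checked on simulated data in which few genes changed, as many up as down by design. That check cannot judge the TMM scaling in these data, where many genes changed. DESeq2 1.42.0 was an alternative. Alternative fits were limited to samples with 20 or more matched barcodes. P-values measure the spread between these samples.

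The 9 per-sample measures and the 13 mitochondrial shares used exact sign-flip permutation tests over samples. The named genes were the 12 that rose most and the 12 that fell most among called genes with a mean log2 CPM of 5 or more and 1 sign in every sample, and up to 4 per list with the lowest p. Gene spans came from GENCODE release M21 on mm10, which gave a span to all 4466 genes tested.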

Additional observations from a re-analysis of the deposited data

Results flagged for a closer look

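In old replicate 2 the difference in Malat1 between selected and matched barcodes was 3.39 percentage points, far from the 0.160 to 0.278 points of the other 3 samples with Malat1 counts. In old replicate 1 the difference in the mt-Nd2 share of mitochondrial UMIs was 1.91 points, against -0.0895 to 0.567 points in the other 5 samples. In all, 25 sets of per-sample differences were screened for a sample far from the others and these 2 stood out, where chance gives about 1 in 20 for independent sets; the 13 mitochondrial shares among them sum to 100% and are not independent.

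For 9 genes the log2 difference between selected and matched barcodes differed between the age groups by the edgeR interaction term, given as old minus young. The values were -2.38 for Hspb1, -2.35 for Tnnc1, -3.50 for Tnni2, -1.96 for Acta2, -2.58 for Tnnt1, -2.19 for Myl4, -1.64 for Tpm2, -1.92 for Cacng1 and -2.27 for Des. Of the smooth muscle and pericyte markers, Acta2 and Des gave most of the UMIs in the selected barcodes. The sum of this list was higher in the selected barcodes of all 3 young samples (mean difference 831 CPM ± 359, SD, n = 3). It was lower in those of all 3 old samples (-77.2 CPM ± 40.9). The old minus young value was -907.8 CPM, and this difference was not tested.

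The shorter gene list holds LACZ, a bacterial reporter gene that the comparisons did not use. It had 30 UMIs in the 160 selected barcodes of young replicate 1 and 0 in the 73 of old replicate 1, which allows up to 3. Among the 71 matched pairs of young replicate 1 it had 14 UMIs in the selected and 12 in the reference barcodes.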

How the results depend on the processing

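Against 1027 genes higher and 1056 lower, the fits gave 2250 and 2713 without matching on depth, 623 and 542 at a share of 8% to 15%, 506 and 508 at 3000 or more UMIs, 470 and 387 without the sample term, 431 and 399 at 15% or more, 215 and 163 under 3000 UMIs, and 1567 and 520 without TMM scaling. The lower count was 591 at 10% or more, 668 in the 4 samples on the longer list and 613 with all genes of that list. Leaving out 1 sample at a time gave 743 to 1149 higher and 689 to 1042 lower, with the lowest count of lower genes without young replicate 1. Fits on part of the members test fewer genes or samples. DESeq2 gave 836 and 872.

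The interaction gave 9 genes, 4 with DESeq2, 22 without a filter on low counts and 8 to 21 with 1 sample left out. The old minus young difference in share ranged from -0.597 to 0.124 points with 1 sample left out and was 0.263 points on the longer list. With equal replicate numbers as a block it was -0.193 points (exact sign-flip permutation p = 0.75), and the interaction fit with the replicate block gave 11 genes, 6 of them among the 9. Myl4 (edgeR adjusted p = 0.543), Cacng1 (0.256) and Tpm2 (0.0703) lost their call there. Samples with the same number did not deviate together (r of -0.17 to -0.05 over the genes tested). These values were centred within each age group, which ties the correlations to each other, so they cannot show that nothing is shared. Young replicate 1 and old replicate 1 do share the shorter gene list and the Cell Ranger version.

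Without matching, 7 measures passed 0.05 after adjustment: ribosomal proteins -6.98, S phase -0.0667, G2 and mitosis -0.252, myocyte 0.814 and matrix 0.0902 points, 108 genes at 1000 UMIs and -6.65 points for the 50 most abundant genes. Mitochondrial shares that changed sign were mt-Co3 (0.739 at 15% or more, 1.32 under 3000 UMIs, 0.206 unmatched), mt-Co1 (-0.0804 on the longer list, -0.0274 to 0.598 with 1 sample left out, lowest without young replicate 1, -0.581 when matched on other UMIs), mt-Nd1 (-0.483, -0.677 and -0.121 in the settings of mt-Co3), mt-Nd4l (-0.0443 matched on other UMIs, -0.0449 at 3000 or more UMIs, -0.0490 under 3000) and mt-Nd3 (-0.0751 on the longer list, -0.117 at 15% or more, -0.212 under 3000). Of the 97 named genes that were called, 93 kept their sign in every fit that tested them; the smaller fits did not test all 97. The others were Cdkn1a (-0.11 unmatched, -0.50 at 15% or more), Manf (0.34 under 3000 UMIs), Pdia6 (0.067 at 10% or more, 1.13 at 15% or more, 1.36 under 3000) and Ccn1 (-0.075 unmatched). Of 1879 values of these genes over all fits, 192 were no longer past the threshold. The causes were not tested. The settings at 15% or more, under 3000 UMIs, without TMM scaling, with all genes of the longer list, and the unmatched measures were chosen after seeing the data. Few reference barcodes under 3000 UMIs limit what the shallow members can show.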
